A study of Homo sapiens with 8 samples.

Results

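Glycolysis, the conversion of glucose to pyruvate and lactate, and the genes that cells switch on when oxygen is short were described here through 31 genes, listed by symbol and found in the deposited tables by their Ensembl identifiers. They were taken from 58735 genes in the tables with no filter on their values. The list was, however, chosen with earlier results of these data known. The 31 genes fall by role into 16 glycolytic enzymes (HK1, HK2, GPI, PFKL, PFKM, PFKP, ALDOA, ALDOC, TPI1, GAPDH, PGK1, PGAM1, ENO1, ENO2, PKM and LDHA), 6 genes of transport and control (SLC2A1, SLC2A3, SLC16A3, PFKFB3, PFKFB4 and PDK1) and 9 other hypoxia-inducible genes (CA9, BNIP3, BNIP3L, NDRG1, EGLN3, ADM, ANKRD37, P4HA1 and DDIT4). Of these, 30 had enough reads for the tests, and CA9, with 59 reads over all 8 libraries, did not.

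The samples were bulk RNA-seq libraries of U2OS, a human osteosarcoma cell line, in 4 groups of 2. Control cells, titled shControl and also called WT in the sources used here, carried a control shRNA. WSB2 knockdown (KD) cells carried a WSB2 shRNA. Each was brought in by lentivirus and kept as a stable line under puromycin selection, so all 4 groups share the vector and the selection. Both cell types were sequenced untreated and after 5 h of TNF-α. WSB2 is the substrate receptor of a cullin-RING ubiquitin ligase, and the comparison asked how its loss changes transcription before and after TNF-α. Which WSB2 hairpin was sequenced, the dose of TNF-α and the oxygen in the incubator were not given in the sources used here, and no group was labelled as hypoxic. No label says that the 2 libraries of a group came from separate cultures, so the p-values measure the spread between these libraries, which may be technical.

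In glycolysis, hexokinase traps glucose as its phosphate, phosphofructokinase commits it to the pathway, aldolase and triosephosphate isomerase make the triose phosphates, and the enzymes from GAPDH to pyruvate kinase recover ATP before lactate dehydrogenase regenerates NAD+. The factor HIF-1 pairs an oxygen-labile alpha subunit (HIF1A) with ARNT. Prolyl hydroxylases of the EGLN family mark the alpha subunit for the VHL ligase when oxygen is present, and when it is not, HIF-1 binds the core ACGTG in promoters and enhancers and raises glucose uptake, most glycolytic steps and the genes that divert pyruvate from mitochondria. Osteosarcoma lines, like many tumour lines, run glycolysis in the presence of oxygen. NF-κB, the factor that TNF-α activates, is also known to act on HIF1A and on some glycolytic genes.

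The values are FPKM, reads scaled to exon length and to a library size. Whole reads could be recovered from them, between 15601098 and 18677023 per library. The library size they imply was not the total of reads. It matched a size set by the median, over genes, of a library's reads relative to their geometric mean over libraries. This size was 1.21 times the reads in both unstimulated KD libraries and 0.925 to 1.03 times in the other 6. WSB2 stood at 27.7 and 28.0 FPKM in unstimulated control cells and 8.38 and 8.52 in KD cells, and after TNF-α at 25.0 and 25.3 against 9.18 or less, so the targeted transcript was lower in every KD library than in every control library. Of the osteosarcoma and mesenchymal markers, VIM, FN1, COL1A1 and SPARC were at 66.4 FPKM or more in every library, RUNX2 was between 1.29 and 2.94, ALPL between 1.22 and 5.41, and COL1A2 was at or below 0.0934. Markers of other cell types (EPCAM, CDH1, PTPRC, PECAM1 and ALB) did not exceed 0.482 FPKM. The 2 unstimulated KD libraries stood apart from the other 6. Mitochondrial transcripts took 4.10% and 4.42% of their reads against 1.11% to 2.03%, the GC content averaged over reads was 49.9% and 49.4% against 52.5% to 53.2%, and 26225 and 26397 genes had a read against 22072 to 22957. Every comparison that uses these libraries, that is KD without TNF-α, TNF-α in KD cells and the interaction, carries that difference, and its part in the results below was not tested beyond the correction for GC content and length.

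Levels per length differed widely among the members. In unstimulated control cells GAPDH was the most abundant, at 2302 ± 296 FPKM (SD, n = 2), followed by ENO1 at 951 ± 163, PKM at 549.9 ± 61.3 and TPI1 at 515 ± 106. PKM and TPI1 are neighbours in that order that did not differ beyond their spread. PGAM1 (199 ± 16.4) and LDHA (177 ± 12.7) came next, also within their spread, and then PGK1 at 145 ± 3.94. The 16 enzymes together took 2.28% and 2.04% of all reads in these libraries, against 0.0285% and 0.0324% for the 6 genes of transport and control and 0.0334% and 0.0355% for the 9 hypoxia-inducible genes. ALDOA, usually among the most abundant glycolytic transcripts, was listed at only 2.44 and 2.36 FPKM from 143 and 160 reads. Its annotated exons share 1657 bases with the read-through gene AC093512.2, and how reads that fall in both genes were counted is not given in the sources used here, so every ALDOA value below is uncertain. The lowest members were SLC16A3, the lactate exporter, at 0.195 ± 0.102 FPKM and CA9, a carbonic anhydrase that is a standard hypoxia marker, at 0.160 and 0.104 FPKM from 4 and 3 reads.

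Since HIF-1 and NF-κB act through short DNA motifs, the promoters of members on which the results turn are shown first. RefSeq promoter windows of 300 bases on GRCh38.p14, from 250 bases before to 50 after a start site, were found for 28 of the 31 members. The exceptions are SLC2A3, BNIP3L and NDRG1. The HIF core ACGTG lay on either strand in a window of 19 of these 28 members and of 24.9% of the 27305 genes with a window, the longer ACGTGC, which contains the core, in 11 members and 8.33% of genes, and the 10-base NF-κB consensus in 8 members and 13.3% of genes. Counted over windows rather than genes, and in the same order, matches lay in 23, 12 and 10 of the members' 54 windows. The background shares were then 21.4%, 6.89% and 11.3% of 35116 windows. The 28 members had 54 windows and the 27305 genes 35116, so counts per gene gave members more chances of a match. More than 1 window was found for 10 of the 28 members. The following stretches, printed 5′ to 3′ on the gene's strand where no annotated exon of that strand covers them, were chosen because they hold a match, and capitals mark a match to the core, its longer form or the NF-κB consensus on either strand. GAPDH is the most abundant member, PGK1 and LDHA are classical HIF-1 targets, and HK2, PFKFB3 and DDIT4, chosen after their values were seen, had the largest differences between KD and control cells with TNF-α.
GAPDH (chr12:6535142-6535263, +): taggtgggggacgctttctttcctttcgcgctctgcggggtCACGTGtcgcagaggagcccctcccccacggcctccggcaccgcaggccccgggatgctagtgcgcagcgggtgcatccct
PGK1 (chrX:78103998-78104173, +): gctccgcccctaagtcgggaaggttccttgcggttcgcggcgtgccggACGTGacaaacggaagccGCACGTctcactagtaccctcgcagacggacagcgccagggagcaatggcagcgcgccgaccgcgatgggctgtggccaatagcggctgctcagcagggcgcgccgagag
LDHA (chr11:18394313-18394387, +): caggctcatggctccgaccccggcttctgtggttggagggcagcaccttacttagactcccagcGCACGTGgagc
HK2 upstream start (chr2:74833877-74833980, +): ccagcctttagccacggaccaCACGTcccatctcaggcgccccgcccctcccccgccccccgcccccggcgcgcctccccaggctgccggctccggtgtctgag
HK2 downstream start (chr2:74834920-74835169, +): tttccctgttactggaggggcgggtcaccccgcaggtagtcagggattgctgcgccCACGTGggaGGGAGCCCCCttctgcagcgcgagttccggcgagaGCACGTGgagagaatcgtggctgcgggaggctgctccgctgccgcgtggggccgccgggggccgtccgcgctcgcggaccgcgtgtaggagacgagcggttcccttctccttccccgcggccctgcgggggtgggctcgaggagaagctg
PFKFB3 (chr10:6202682-6202865, +): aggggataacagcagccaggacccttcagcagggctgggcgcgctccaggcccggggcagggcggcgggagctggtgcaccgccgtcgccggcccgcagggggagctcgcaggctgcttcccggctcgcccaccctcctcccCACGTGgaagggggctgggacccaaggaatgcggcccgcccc
DDIT4 (chr10:72273674-72273919, +): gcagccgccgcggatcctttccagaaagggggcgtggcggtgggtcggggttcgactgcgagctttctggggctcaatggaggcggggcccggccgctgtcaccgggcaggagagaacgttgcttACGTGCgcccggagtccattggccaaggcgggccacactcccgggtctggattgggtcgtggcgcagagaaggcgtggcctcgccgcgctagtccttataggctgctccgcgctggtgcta
In GAPDH and PFKFB3 the capitals are the palindrome CACGTG, which holds the core and reads the same on both strands. The stretch before the downstream HK2 start holds 2 cores on either side of an NF-κB match that begins 185 bases before that start. Matches outside the printed stretches are not shown. Among them is an NF-κB match that begins 10 bases before the PFKFB3 start. No ACGTG was found in the windows of PFKL, HK1, PGAM1, ENO1, PKM, SLC2A1, PFKFB4, EGLN3 and ADM. A match is only a description of letters, and binding was not measured here.

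Without TNF-α, KD cells had lower levels of most glycolytic enzymes than control cells. GAPDH read 2511 and 2093 FPKM in the control libraries and 1043 and 1085 in the KD libraries. The groups did not overlap, and the fall was by 1.11 on the log2 scale of FPKM + 1 (SE 0.18, adjusted p = 0.0013 by limma). Of the 30 members tested, 21 were called lower and 3 higher at an adjusted p under 0.05, where 30.2% and 29.8% of all 16528 genes tested were called lower and higher. The members' median difference was -0.57 against -0.00 over all genes. Scaling to total reads moved the median of all genes to 0.13 and the members' calls to 16 lower and 4 higher, and upper-quartile factors moved them to -0.12 and to 22 lower and 2 higher. Over all genes those scalings gave 3456 lower and 6515 higher, and 6273 lower and 3805 higher, against 4996 lower and 4932 higher.

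**Figure D1:**
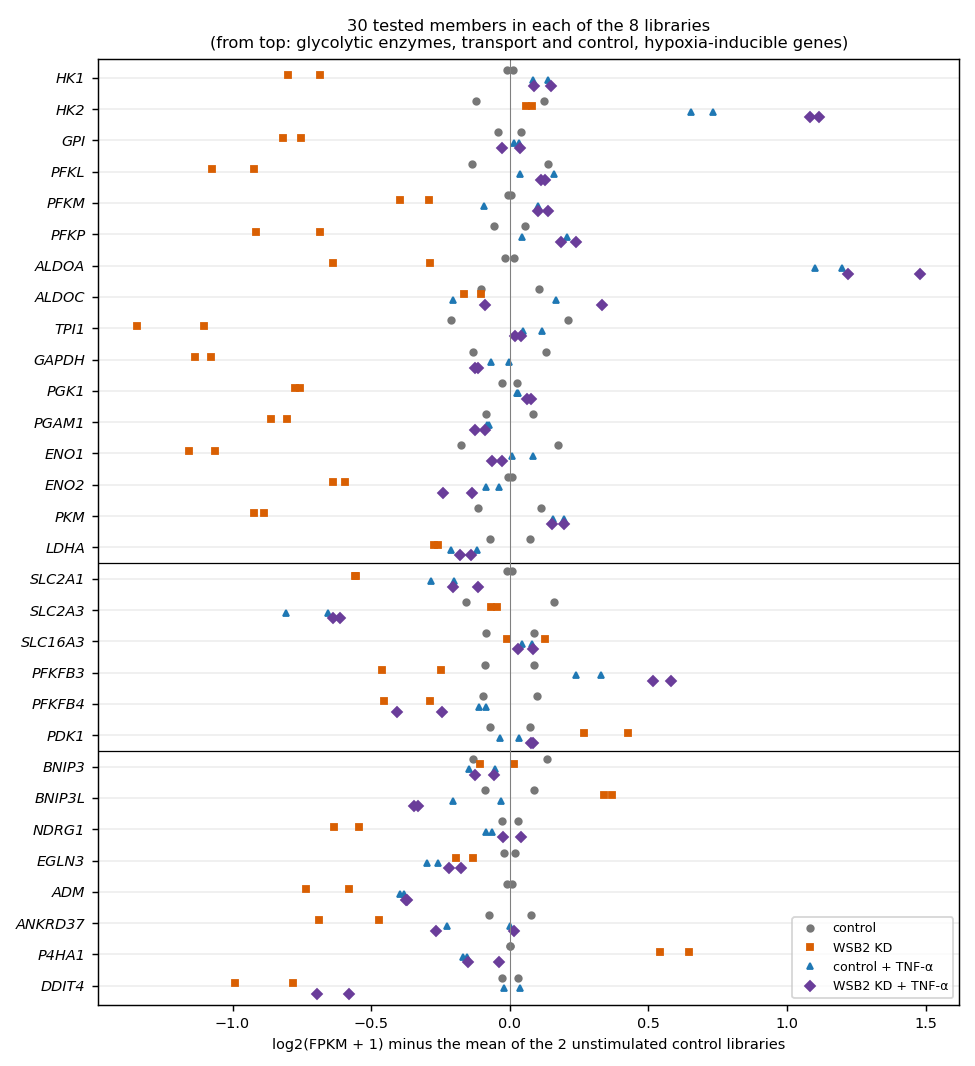
Each row is 1 of the 30 tested members and each symbol 1 of the 8 libraries, placed by log2(FPKM + 1) minus the mean of the 2 unstimulated control libraries. The unstimulated KD libraries (squares) lie to the left for the 14 enzymes that were called lower, and the TNF-α libraries of both cell types stand close to each other for most members.

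Among the enzymes, 14 of 16 were called lower, none higher, and their median difference was -0.78. The upper part of the pathway followed the lower. GPI, which interconverts the hexose phosphates, went from 41.4 and 39.1 FPKM to 23.5 and 22.4. PFKL, the liver-type phosphofructokinase, went from 26.8 and 22.0 to 12.4 and 11.0, and PFKP, the platelet type, from 39.3 and 36.3 to 23.1 and 19.6. In none of these did a KD library reach a control library. TPI1, triosephosphate isomerase, had the largest fall among the members before correction for GC content and length, by 1.22 (SE 0.16, adjusted p = 0.0005), from 589.6 and 440.0 FPKM to 237 and 200.1. Its control libraries differed from each other, yet both stayed above the KD libraries.

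The ATP-generating steps fell in the same comparison. PGK1, phosphoglycerate kinase, read 148 and 142 FPKM in control cells against 85.6 and 84.4 in KD cells, a log2 difference of -0.76 (SE 0.08, adjusted p = 0.00021). PGAM1, phosphoglycerate mutase, fell by 0.83, ENO1, enolase, by 1.11 and PKM, pyruvate kinase, by 0.90. These 4 were also called lower under all 17 alternative settings. LDHA, which makes lactate, moved much less before correction for GC content and length, from 186 and 168 FPKM to 146 and 148. Its fall by 0.27 (adjusted p = 0.034) kept its call in 7 of 17 alternatives and lost it without any library in turn other than control replicate 2, and with scaling to total reads its difference was 0.01. With the correction for GC content and length, LDHA instead had a difference of -0.56 and was called lower. Shares of all reads amount to the same scaling to total reads. In control cells GAPDH, ENO1 and PKM together took 1.75% and 1.54% of reads, against 0.97% and 0.96% in KD cells. LDHA took 0.111% and 0.107% against 0.110% and 0.111%.

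Hexokinase and the minor isoenzymes were mixed. HK1, the constitutive hexokinase, read 61.3 and 60.4 FPKM against 37.5 and 34.5, a fall by 0.74 (adjusted p = 0.00022). HK2, the inducible one, was at 6.80 and 8.23 FPKM against 7.98 and 7.84, with overlapping groups and a difference of 0.07 (SE 0.10, adjusted p = 0.56), which became 0.32 and was called with scaling to total reads. PFKM fell by 0.34 and ENO2, the neuronal enolase, by 0.62. PFKM lost its call with scaling to total reads and without KD replicate 2. ALDOA fell by 0.46, a call lost in 7 of 17 alternatives, among them the fits without unstimulated control replicate 1, control replicate 2 or KD replicate 1. ALDOC, at 0.603 to 0.934 FPKM, was not called.

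The genes of transport and control divided. SLC2A1, the basal glucose transporter GLUT1, fell from 39.4 and 39.9 FPKM to 26.7 and 26.6, by 0.56 on the log2 scale (SE 0.07, adjusted p = 0.00049). SLC2A3, the high-affinity transporter GLUT3, read 6.04 and 7.79 against 6.50 and 6.61 and was not called. PFKFB3 and PFKFB4, whose products set the level of fructose-2,6-bisphosphate, an activator of phosphofructokinase, fell by 0.35 and 0.37. Both calls were lost without KD replicate 2, PFKFB3 also lost its call without control replicate 2, and PFKFB4 without control replicate 1. PDK1, the kinase that shuts pyruvate dehydrogenase, was called higher by 0.35 (adjusted p = 0.0095), from 0.394 and 0.540 FPKM to 0.763 and 0.971, a call lost without control replicate 1 or KD replicate 2. SLC16A3, at 0.122 to 0.303 FPKM over the 4 libraries, had a difference of 0.06 and was not called.

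Of the 8 hypoxia-inducible genes tested, 4 were called lower and 2 higher, against 30.2% and 29.8% of all genes. DDIT4 (REDD1), an inhibitor of mTORC1, read 14.6 and 15.3 FPKM in control cells against 8.26 and 7.02 in KD cells, a fall by 0.89 (SE 0.10, adjusted p = 0.00026). ADM, the vasodilator peptide adrenomedullin, fell by 0.66 from 3.07 and 3.02 FPKM to 1.71 and 1.43. NDRG1, a stress-responsive gene, fell by 0.59 from 18.1 and 18.8 to 12.3 and 11.5. ANKRD37, a compact HIF-1 target whose exons share 909 bases with UFSP2 on the other strand, fell by 0.58 and lost its call without KD replicate 2. In contrast, P4HA1, a collagen prolyl hydroxylase subunit, rose from 11.9 and 11.9 FPKM to 17.7 and 19.1, by 0.59 (SE 0.08, adjusted p = 0.00056), and BNIP3L, a mitophagy receptor, rose by 0.35 from 13.9 and 12.1 to 17.0 and 16.7. The call of BNIP3L was lost without either KD library. Its paralog BNIP3 read 4.03 and 3.18 FPKM against 3.64 and 3.26 and was not called, nor was EGLN3, the hypoxia-induced prolyl hydroxylase, at 1.18 and 1.24 against 1.01 and 0.929. Members of the group thus moved both ways. In bulk RNA, a smaller number of cells of one kind and less transcript per cell cannot be told apart.

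**Figure D2:**
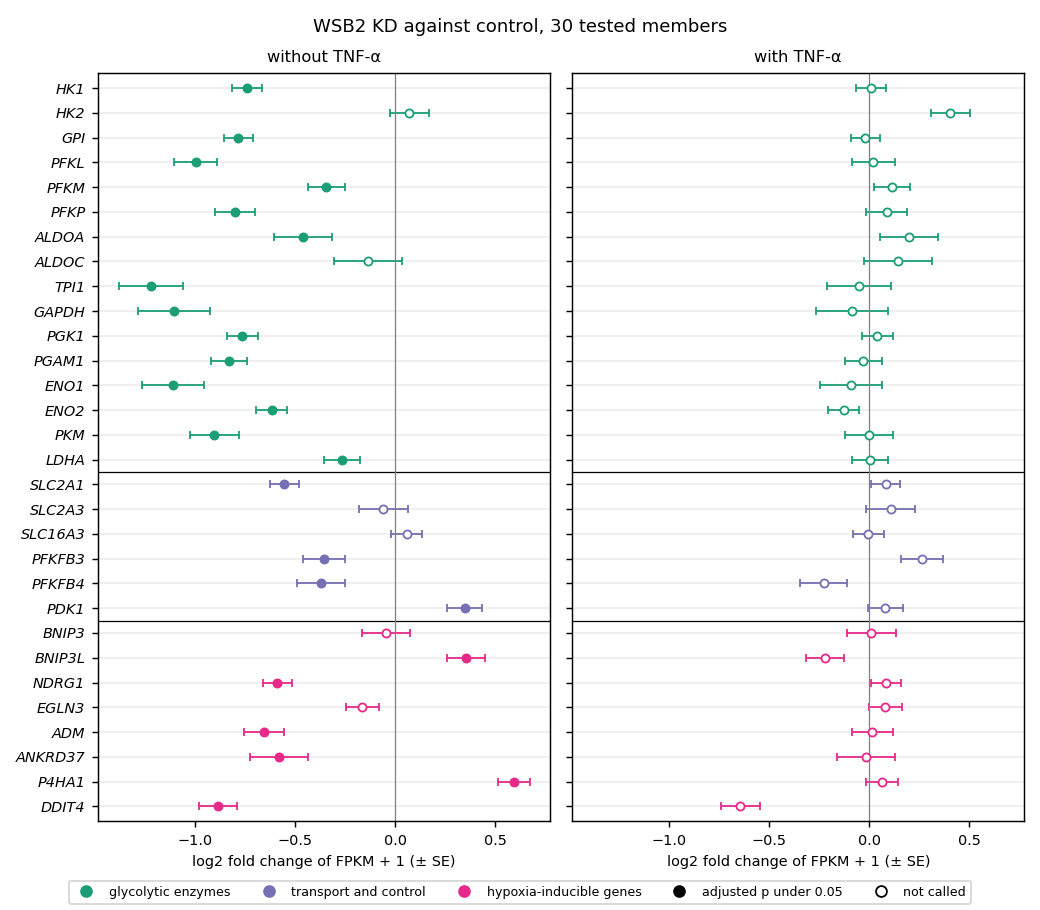
Points are log2 fold changes of FPKM + 1 between KD and control cells with their SE, at left without and at right with TNF-α, one row per tested member and filled where the adjusted p was under 0.05. At left 21 members are called lower and 3 higher, and at right none is called, with DDIT4 furthest from 0 at -0.64.

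GC content moved with these differences. Over the 30 members tested, which share their libraries, Spearman's rho between the exon GC content and the KD difference without TNF-α was -0.535, and over 16520 genes it was -0.685. The median GC content of the 31 members was 53.1% against 48.7% over all genes tested. The 3 members that were called higher, P4HA1, PDK1 and BNIP3L, have the lowest GC content of the set, at 40.8%, 39.8% and 38.9%. After a correction of each library for GC content and length, 18 members were called lower and 2 higher, with a median difference of -0.31, and of all genes 4664 were called lower and 3969 higher, with a median of -0.02. The falls that shrank by over 1.5 times and were still called included TPI1 at -0.71, PFKL at -0.61, PGAM1 at -0.49, PFKP at -0.37, ENO2 at -0.25 and SLC2A1 at -0.22. With scaling to total reads, SLC2A1 had a difference of -0.28, PFKP of -0.53, ENO2 of -0.36 and PGK1 of -0.49, all still called. With the GC and length correction PGK1, at 43.3% GC, had a difference of -1.07 and LDHA, at 44.0%, one of -0.56. GAPDH had one of -0.56 and DDIT4 one of -0.35, each still called. In that setting PDK1 turned to -0.41 and was called lower, and BNIP3L turned to -0.17 and was not called. The falls of ALDOA, PFKFB3, PFKFB4 and ADM were no longer called with this correction. P4HA1 kept a rise of 0.22 and SLC16A3 was called higher, at 0.43. Called in the same direction in all alternatives computed were 15 members, 14 of them lower and 1, P4HA1, higher.

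**Figure D3:**
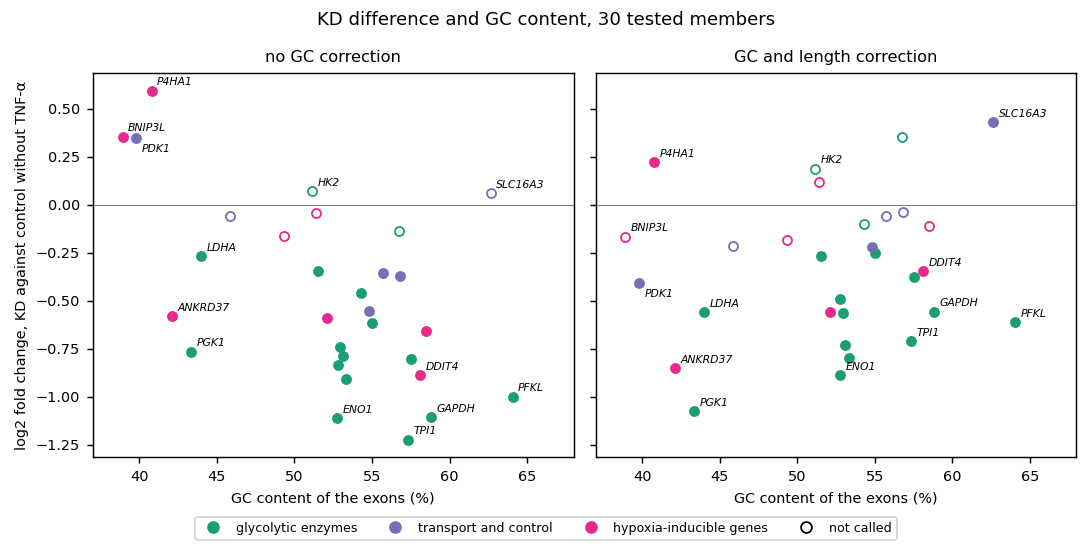
Each point is 1 of the 30 tested members, placed by the GC content of its exons (%) and by its log2 fold change between unstimulated KD and control cells, at left as tested and at right after correction for GC content and length, filled where the adjusted p was under 0.05. P4HA1, PDK1 and BNIP3L lie above 0 at the low-GC end at left, and of these only P4HA1 does at right, whereas PGK1 lies lower at right.

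With TNF-α, the question was the same, whether KD cells differ from control cells, and no member was called by limma, where 0.0605% of all genes were called higher and 0.0545% lower. At an unadjusted p under 0.05, 2 members were higher and 2 lower, and voom on the recovered reads called none after adjustment. GAPDH stood at 2285 and 2186 FPKM in control cells against 2116 and 2099 in KD cells, a difference of -0.08 (SE 0.18). The median over the 30 members was 0.01, and 27 of them lay within 0.25 of 0 on the log2 scale, with standard errors between 0.07 and 0.18.

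Outside that range lay 3 members. DDIT4 read 15.4 and 14.7 FPKM in control cells against 9.67 and 8.85 in KD cells, without overlap, a difference of -0.64 (SE 0.10, adjusted p = 0.082). It was called in 2 of 17 alternatives, namely without unstimulated control replicate 1 (adjusted p = 0.0385) and without unstimulated control replicate 2 (adjusted p = 0.0389), and its adjusted p ranged from 0.0385 to 0.64 over the alternatives. HK2 read 12.3 and 13.1 against 17.4 and 17.0 FPKM, a difference of 0.41 (SE 0.10, unadjusted p = 0.0034, adjusted p = 0.24), and PFKFB3 10.9 and 11.6 against 14.0 and 13.4, a difference of 0.27 (adjusted p = 0.57). The KD and control libraries did not overlap for either gene. This held also for members with small differences, such as GAPDH at -0.08, PGK1 at 0.04 and ADM at 0.02. The share of all genes without overlap was not computed. Neither the HK2 nor the PFKFB3 difference was called in any of 17 alternatives. The remaining member at an unadjusted p under 0.05 was BNIP3L, at -0.22 (adjusted p = 0.61).

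**Figure D4:**
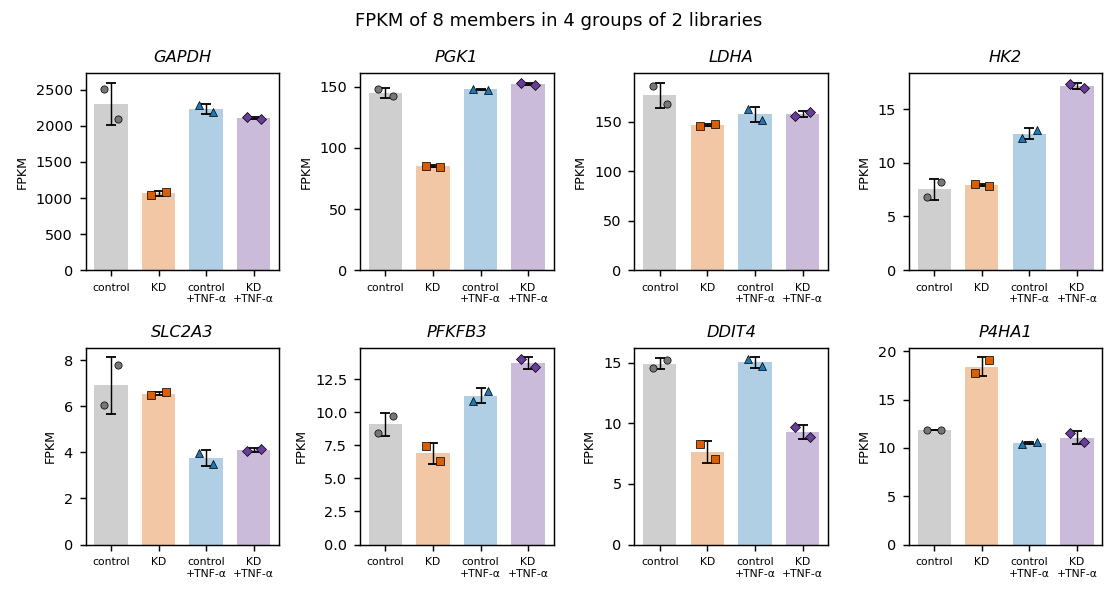
FPKM of GAPDH, PGK1, LDHA, HK2, SLC2A3, PFKFB3, DDIT4 and P4HA1 in the 4 groups, with bars at the mean, error bars of 1 SD (n = 2) and symbols for the libraries, on linear axes from 0. The orange bars of unstimulated KD cells are low for GAPDH and PGK1 and high for P4HA1, HK2 is highest in KD cells with TNF-α at 17.4 and 17.0 FPKM, and DDIT4 is low in both KD groups.

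TNF-α in control cells gave few calls among the members. Called higher were 2 members and lower 1, against 3.1% and 1.14% of all genes tested, and the members' median difference was -0.01. Over all genes, 512 were called higher and 189 lower, and 379 and 250 with scaling to total reads. HK2 rose from 6.80 and 8.23 FPKM to 12.3 and 13.1, by 0.69 (SE 0.10, adjusted p = 0.0082), and its groups did not overlap. SLC2A3 fell from 6.04 and 7.79 to 3.99 and 3.50, by 0.73 (SE 0.12, adjusted p = 0.019). The third call was ALDOA, from 2.44 and 2.36 to 6.29 and 6.79 FPKM, a log2 difference of 1.15 (adjusted p = 0.0049), with the reservation on its counting given above. Its overlapping gene AC093512.2 read 0.515 and 0.737 FPKM without and 0.616 and 0.577 with TNF-α. Leaving out TNF-α control replicate 2 ended all 3 calls (adjusted p = 0.0901 for HK2, 0.144 for SLC2A3 and 0.0561 for ALDOA), and leaving out TNF-α control replicate 1 ended those of HK2 and SLC2A3. PFKFB3, which is known to respond to inflammatory signals, read 8.46 and 9.69 against 10.9 and 11.6 and was not called (adjusted p = 0.22), and ADM, at 3.07 and 3.02 against 2.10 and 2.08, had an adjusted p of 0.089. EGLN3 differed by -0.28 (adjusted p = 0.12 by limma) and SLC2A1 by -0.24 (adjusted p = 0.13). With the GC correction limma called SLC2A1 and ADM lower (adjusted p = 0.033 and 0.046). GAPDH differed by -0.04, PGK1 by 0.03 and DDIT4 by 0.01, none of these 3 called.

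In KD cells, most enzymes had higher levels with TNF-α than without. Of the 21 members that were lower in unstimulated KD than control cells, 18 were called higher here. Those 21 were picked by the same unstimulated KD libraries that are the baseline here, and the matching share of all genes was not computed. Called higher were 19 members and lower 4, where 31.1% and 31.4% of all genes were called, and the members' median was 0.46 against -0.01. With scaling to total reads the members' calls were 14 and 6, and over all genes 3309 higher and 7240 lower in place of 5141 and 5187, with the median of all genes at -0.19. Upper-quartile factors gave 6128 higher and 4075 lower over all genes. The comparison shares the unstimulated KD libraries with the knockdown comparison, so the 2 are not independent. GAPDH went from 1043 and 1085 FPKM to 2116 and 2099, a rise by 0.99 (SE 0.18, adjusted p = 0.002), and PGK1 from 85.6 and 84.4 to 153 and 151. HK2 went from 7.98 and 7.84 FPKM to 17.4 and 17.0, a rise by 1.03 (SE 0.10, adjusted p = 0.00011), and PFKFB3 from 7.46 and 6.31 to 14.0 and 13.4, by 0.90 (adjusted p = 0.00024). Both were above every other library. SLC2A3 fell by 0.57, P4HA1 by 0.69, BNIP3L by 0.69 and PDK1 by 0.27. Of the 23 calls, 16 held under all alternatives computed, among them those of HK2, GAPDH, PGK1, PFKFB3 and SLC2A3. The call of PDK1 was lost without KD replicate 2 and without either TNF-α KD library, that of ADM without any library in turn other than the 2 unstimulated control ones, and that of ANKRD37 without KD replicate 2 of either treatment. The rises in KD cells of ENO2 and SLC2A1 were not called with scaling to total reads or with the GC correction, and the fall of BNIP3L was not called with the GC correction.

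**Figure D5:**
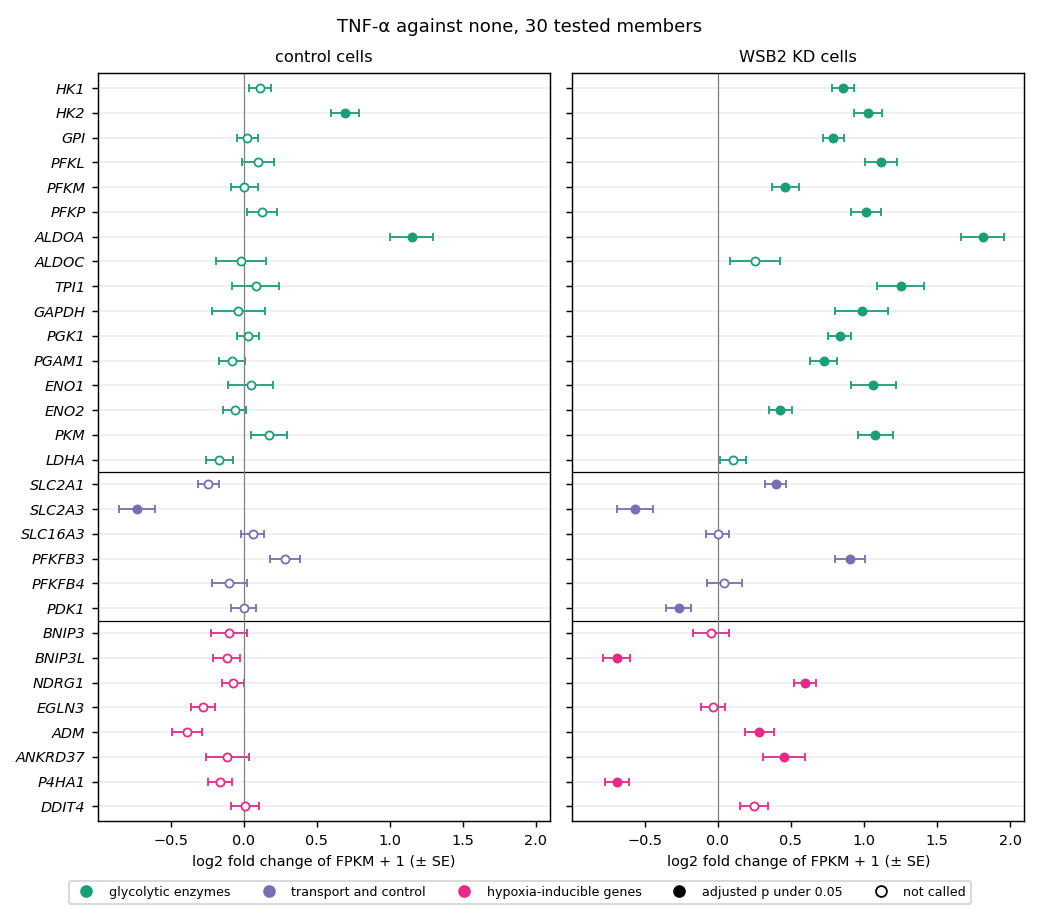
Points are log2 fold changes of FPKM + 1 between cells with and without TNF-α and their SE, at left in control and at right in KD cells, filled where the adjusted p was under 0.05. HK2 and ALDOA are called higher and SLC2A3 lower in both panels, and 19 members are called higher at right against 2 at left.

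Whether the knockdown difference itself changed with TNF-α was tested as an interaction. It was called above 0 for 17 members and below 0 for 2, where 23.8% and 22.3% of all genes were called, with a median of 0.59 over the members and 0.01 over all genes. Upper-quartile factors gave 22 and 0 members, and 5140 and 2781 of all genes in place of 3935 and 3679. Scaling to total reads gave 13 and 3 members, and 2440 and 4966 of all genes. Largest before correction for GC content and length were TPI1 at 1.17 (SE 0.23, adjusted p = 0.0052), then GAPDH, PFKL and ENO1, each at 1.02. The 2 below 0 were BNIP3L at -0.58 and P4HA1 at -0.53. The interaction of DDIT4 was 0.24 (adjusted p = 0.18), so its 2 knockdown differences, -0.89 and -0.64, were not shown to differ. The interaction of HK2 was 0.34 (adjusted p = 0.081) and was called in 2 of 16 alternatives, with upper-quartile factors and without unstimulated control replicate 1 (adjusted p = 0.00925). GAPDH lost its call without any library in turn other than the 2 unstimulated control ones (adjusted p between 0.0555 and 0.071). ALDOA lost it in 5 such fits, namely without unstimulated control replicate 1, unstimulated KD replicate 1, either TNF-α control library or TNF-α KD replicate 2. PFKM lost it without unstimulated KD replicate 2, TNF-α control replicate 1 or either TNF-α KD library, and ENO2 without TNF-α KD replicate 1. With the GC correction 16 members were called above 0 and 1 below 0, and of all genes 3294 and 2587. The interaction was then 1.11 for PGK1, 0.66 for TPI1, 0.62 for PFKL and 0.48 for GAPDH, and those of ALDOA, ENO2, PFKFB3, ADM, P4HA1 and BNIP3L were not called.

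Isoenzymes of the same step are compared here by their shares of the summed FPKM, a level per length. HK2 made up 9.99% and 12.0% of the hexokinase pair in unstimulated control cells, 17.6% and 18.5% in KD cells, 16.0% and 16.3% in control cells with TNF-α and 20.5% and 20.8% in KD cells with TNF-α. HK1 thus remained the larger of the pair in every library. PFKM made up at most 16.8% of the 3 phosphofructokinases in unstimulated control cells and 21.0% and 22.1% in unstimulated KD cells, and 14.6% to 15.4% in the TNF-α libraries. PFKP held 49.8% to 53.0% in all 8. SLC2A3 was 13.3% and 16.3% of the glucose transporter pair in unstimulated control cells, 19.6% and 19.9% in KD cells and 9.23% to 11.0% with TNF-α in either cell type. PFKFB4 was 19.9% and 14.9% of its pair in unstimulated control cells and 7.78% and 9.71% in KD cells with TNF-α. ENO2 remained at or below 2.00% of the enolase pair, and BNIP3 held 16.3% to 25.2% of its pair. ALDOC held 7.54% to 33.7% of the aldolase pair, a share that rests on the uncertain ALDOA counts.

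CA9 was listed at 0.160 and 0.104 FPKM in unstimulated control cells, 0.151 and 0.279 in KD cells, 0.226 and 0.349 in control cells with TNF-α and 0.520 and 0.303 in KD cells with TNF-α, from 3 to 15 reads per library. Its exons also share 643 bases with ARHGEF39 on the other strand, so no comparison was made. Exons of other members that share bases with another annotated gene include those of PFKM with SENP1, SLC16A3 with CSNK1D, BNIP3L with PNMA2, PFKFB4 with UCN2 and DDIT4 with its antisense gene, and the strand setting of the counting is not given in the sources used here. GAPDH has 62 annotated processed copies, which together held 2099 reads against 760994 for the gene itself, TPI1 has 4 with 1919 reads against 159556, and BNIP3 has 39 with 47 reads.

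The oxygen-sensing machinery was followed in 12 genes, of which 11 had enough reads. Without TNF-α, 3 were called higher and 1 lower in KD cells, against 29.8% and 30.2% of all genes. HIF1A read 13.6 and 19.0 FPKM in control cells against 46.1 and 53.8 in KD cells, a rise by 1.57 (SE 0.15, adjusted p = 0.00018). CUL2, the scaffold of the VHL ligase, rose by 1.24, WSB1, the paralog of WSB2, by 0.94, and SIAH2, a ligase for prolyl hydroxylases, fell by 0.51. With the GC correction the rise of HIF1A was 0.92 and still called, and SIAH2 was not called. CUL2 and WSB1 have a GC content of 40.0% and 41.7%, and their corrected values are not given here. With TNF-α, HIF1A read 18.9 and 17.6 FPKM in control cells against 16.5 and 16.9 in KD cells, and none of the 11 was called by limma or voom, and none had an unadjusted p under 0.05 by limma. In KD cells with TNF-α against none, HIF1A fell by 1.52, CUL2 by 1.30 and WSB1 by 0.80, whereas SIAH2 rose by 0.71 and VHL by 0.53. TNF-α in control cells gave no call in this list by limma or voom, with 2 genes at an unadjusted p under 0.05 by limma, and HIF1A had a difference of 0.18 (adjusted p = 0.61).

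Of 15 further hypoxia-inducible genes tested, 6 were called higher and 2 lower in unstimulated KD cells, against 29.8% and 30.2% of all genes, with a median of 0.23. PLOD2, a collagen lysyl hydroxylase, rose by 1.34, ERO1A, an oxidase of the endoplasmic reticulum, by 0.69 and KDM3A, a histone demethylase, by 0.66, and P4HA2, the paralog of P4HA1, fell by 0.87. The rises of ERO1A and KDM3A were not called with the GC correction, at 0.00 and 0.09. PLOD2 has a lower GC content than either, at 34.4%, and its corrected value is not given here.  With TNF-α, none of the 15 was called in KD against control cells by limma or voom, with 4 at an unadjusted p under 0.05. TNF-α in control cells raised 1, BHLHE40, a transcriptional repressor, from 25.0 and 25.4 FPKM to 47.9 and 48.6, by 0.91 (SE 0.07, adjusted p = 0.00044). In KD cells 3 were called higher and 8 lower after TNF-α, against 31.1% and 31.4% of all genes, with BHLHE40 at 1.04, P4HA2 at 0.84, PLOD2 at -0.95 and KDM3A at -0.70.

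Pathways that branch from glycolysis were also followed. All 7 pentose phosphate genes were called in unstimulated KD cells, 6 lower and 1 higher, against 30.2% and 29.8% of all genes. TALDO1, transaldolase, fell by 1.11 and TKT, transketolase, by 1.07. Of 13 genes for the fate of pyruvate and lactate, 6 were called higher and 5 lower, beside the same shares of all genes. DLD, the shared E3 subunit of pyruvate dehydrogenase, rose by 1.04 and PDP1, its phosphatase, by 0.77, whereas BSG, the chaperone of the lactate transporters, fell by 1.08, MPC2, a subunit of the mitochondrial pyruvate carrier, by 0.81 and PDK2 by 0.64. GC content was 39.3% for DLD and 41.0% for PDP1, 61.6% for BSG and 59.8% for PDK2, but 42.2% for MPC2. Values corrected for GC content and length are not given for the genes of this paragraph. Of 9 other glycolytic isoenzymes tested, of 17 in the list, 2 were called higher and 2 lower, with ENO3 at -0.80 and PGM1 at -0.63. None of these 3 lists had a call in KD against control cells with TNF-α, or with TNF-α in control cells, by limma with the pseudocount of 1 or by voom, whereas with a pseudocount of 0.1 limma called 1 gene of pyruvate and lactate, PDK4, lower with TNF-α in control cells. At an unadjusted p under 0.05 by limma, 1 pentose phosphate gene and 1 gene of pyruvate and lactate differed in the former, and 5 genes of pyruvate and lactate and 1 isoenzyme in the latter. In KD cells after TNF-α, 6 pentose phosphate genes were called higher and 1 lower, 4 genes of pyruvate and lactate higher and 6 lower, and 2 isoenzymes higher and 2 lower, where 31.1% of all genes were called higher and 31.4% lower.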

How the data were processed

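Libraries of U2OS cells were sequenced in 4 groups of 2, and the deposited tables give FPKM per gene, made by the authors from featureCounts reads. The submitters' processing notes name CASAVA 1.8, fastp, HISAT2 2.0.5, featureCounts 1.5.0-p3, DESeq2 1.20.0 and GRCh38. All 58735 genes match GENCODE 29 in identifier, position and exon length. Every FPKM value was a whole number of reads within a tolerance of 0.02. The main test was limma 3.58.1 (R 4.3.3) on log2(FPKM + 1), with a mean per group, a variance trend and Benjamini-Hochberg adjustment over the 16528 genes that reached 10 reads, scaled to median depth, in 2 or more libraries and 15 reads in total. Fold changes on this scale understate those of low genes. A call is an adjusted p under 0.05. Alternatives were a pseudocount of 0.1, no filter, a mean FPKM of at least 1, upper-quartile factors, total reads, voom on recovered reads, a GC content and length correction, a replicate block, only the 4 libraries compared, and each library left out. Scripts were tested on simulated data, and summaries used Python 3.11.15 with pandas 2.3.3. All members are named, and of the related lists the 3 genes with the largest log2 change above 0.5 in size in each direction among those called, apart from 1 that is not reported here. The members and lists were chosen with earlier results of these data known.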

Additional observations from a re-analysis of the deposited data

Results flagged for a closer look

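For 19 members and HIF1A the knockdown difference changed with TNF-α by limma's interaction test, given here as the difference of log2 differences, KD against control with TNF-α minus that without. Among the enzymes it was 1.17 for TPI1, 1.02 for GAPDH, 1.02 for PFKL, 1.02 for ENO1, 0.90 for PKM, 0.89 for PFKP, 0.81 for PGK1, 0.80 for PGAM1, 0.77 for GPI, 0.75 for HK1, 0.66 for ALDOA, 0.49 for ENO2 and 0.46 for PFKM. Among the other members it was 0.67 for NDRG1, 0.67 for ADM, 0.64 for SLC2A1 and 0.62 for PFKFB3, and it was -0.58 for BNIP3L and -0.53 for P4HA1. For HIF1A it was -1.69. All of these rest on the 2 unstimulated KD libraries, whose mitochondrial share and GC content stood apart from the other 6, and the part of that difference was not tested beyond the GC content and length correction.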

How the results depend on the processing

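Of 2500 member values under alternatives, 99 lost a call, 30 gained one and 10 changed sign where either fit made a call. In the other 2361 the call did not change, though some differences that were not called changed sign. The 10 were LDHA at 0.0145 without TNF-α and -0.27 for TNF-α in KD cells, both with total reads, and with the GC correction PDK1 at -0.41 and BNIP3L at -0.17 without TNF-α, SLC2A1 at -0.0008, PFKFB4 at -0.38, PDK1 at 0.41, ADM at -0.28 and DDIT4 at -0.30 for TNF-α in KD cells, and PDK1 at 0.50 for the interaction. The cause was not tested.

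The members' median KD difference without TNF-α was -0.65 with a pseudocount of 0.1, -0.60 with a mean FPKM of at least 1, -0.75 with upper-quartile factors, -0.31 with total reads, -0.65 with voom and -0.31 with the GC correction, and -0.59 to -0.53 with a library left out. That for TNF-α in control cells was -0.0652 with total reads and -0.0748 with the GC correction, and -0.0579 to 0.0197 with a library left out. That for TNF-α in KD cells was, in the same order of settings as for the knockdown, 0.57, 0.66, 0.64, 0.18, 0.60 and 0.39, and 0.43 to 0.54 with a library left out. That of the interaction was 0.67, 0.65, 0.77, 0.35, 0.67 and 0.34, and 0.51 to 0.66.

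With a library left out, 17 to 23 members were called without TNF-α, 0 to 1 in KD against control cells with TNF-α, 0 to 3 for TNF-α in control cells, 20 to 24 for TNF-α in KD cells and 16 to 20 for the interaction. For TNF-α in control cells 5 were called with the GC correction and 1 with only the 4 libraries compared. The shares of all genes called in the fits of this paragraph are not given here. Its counts therefore do not set the members apart from all genes. Correlations of deviations from the group means between same-numbered libraries were -0.191 to 0.35, the largest between the unstimulated control and KD libraries. With 2 libraries a group, the deviations of replicate 2 mirror those of replicate 1. The correlations therefore do not settle whether replicate numbers pair the samples. With the replicate block 24, 0, 3, 22 and 19 members were called. CA9, with 59 reads in all, had too few for a test.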
